A study of Mus musculus with 6 samples.

Results

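The 33 genes described here encode enzymes of cholesterol and fatty acid synthesis, the SREBP regulators that control them, and proteins that carry, export or store sterols. They were taken by symbol from the 46959 rows of a table of gene expression in sorted mouse islet cells, and fall into 6 genes of mevalonate and isoprenoid steps, 11 of squalene and later sterol steps, 5 of the SREBP system, 5 of fatty acid synthesis and 6 of sterol transport, efflux and storage. Islets came from adult mice carrying 2 transgenes, Ins1-H2b-mCherry, a nuclear label placed under an insulin gene promoter, and Ucn3-eGFP, a label for cells that express urocortin 3, and the design text has all 3 groups sorted from the same islets. Immature beta cells carried mCherry without eGFP, mature beta cells carried both labels, and double negative cells, the non-beta islet cells, carried neither label. Each group has 2 libraries, each from islets pooled over several mice. The labels give replicate 1 as male and replicate 2 as female, while the design text names pools of 10 to 12 females. The islets were kept overnight in medium with 5.5 mM glucose and 10% serum before sorting.

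Cholesterol is built from acetyl-CoA through mevalonate, farnesyl diphosphate, squalene and lanosterol, and fatty acids are built from the same precursor by acetyl-CoA carboxylase and fatty acid synthase. When sterols in the endoplasmic reticulum are low, SCAP escorts SREBP transcription factors to the Golgi for activation, and INSIG proteins retain the complex when sterols are high. When sterols accumulate, LXR receptors induce the export pumps ABCA1 and ABCG1, and SOAT1 esterifies the surplus for storage. In beta cells, membrane cholesterol is known to bear on insulin granules and on the channels that control secretion.

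Depth and purity differed between the groups. The steps of low RPKM values (reads per kilobase of exon, scaled to the library total) correspond to 2393827 and 3448894 reads in the immature libraries, against 22064058 to 26824156 reads in the other 4. Beta cell markers (8 genes) summed to 72851 and 77973 RPKM in immature, 246410 and 263200 RPKM in mature and 4699 and 7006 RPKM in double negative libraries. Markers of other cells were present in the immature libraries. Macrophage and immune markers (12 genes) summed to 1915 and 2007 RPKM in immature libraries, 61.8 and 62.1 RPKM in mature and 50.2 and 52.7 RPKM in double negative libraries, with all 12 genes higher in immature than in both other groups. Tyrobp and Ptprc were each listed at 0 in at least 1 mature library, and C1qa and Cd68 held most of the mature sum. Endothelial markers (10 genes) summed to 940 and 896 RPKM, 4.88 and 3.45 RPKM, and 216 and 227 RPKM in immature, mature and double negative libraries. Acinar markers (10 genes) reached 9315 and 29023 RPKM in immature libraries, against 129 to 2250 RPKM in the other 4, and alpha cell markers (6 genes) 29170 and 19860 RPKM in immature, 674 and 878 RPKM in mature and 178110 and 171680 RPKM in double negative libraries. In these bulk samples, fewer cells of a type and less RNA per cell cannot be told apart, and the part of these other cells in the differences given here was not tested.

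All differences are on the log2(RPKM + 1) scale, tested by limma over 13367 genes with an adjusted p below 0.05, and these p-values cover only the spread among the libraries at hand. For a single gene, an exact two-sided permutation test of 2 against 2 libraries cannot go below p = 0.333. The scaling matters in comparisons with the immature libraries. Over all tested genes the median difference was 0.29 (immature minus mature) and 0.24 (immature minus double negative) as deposited, 0.11 and 0.06 after median-ratio rescaling, and -0.16 and -0.12 after quantile normalization. For mature minus double negative cells it was -0.08, -0.08 and 0.01.

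The 3 comparisons gave different pictures. Of 32 members tested, 18 (56.2%) were higher in immature than in mature cells and 6 (18.8%) were lower, against 49.8% and 15.5% of all tested genes, so the counts lie near the background, and the members' median was 0.35. In mature against double negative cells, 9 (28.1%) were higher and 16 lower, against 23.1% and 31.2% of all genes, with a median of -0.25. In immature against double negative cells, 10 (31.2%) were higher and 14 (43.8%) lower, against 45.9% and 10.6% of all genes, with a median of -0.11. The comparisons share libraries and are not independent of each other.

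Rescaling changed the split of the members as it did that of all genes. After median-ratio rescaling, 13 members were higher and 10 lower for immature against mature cells, and after quantile normalization 9 and 13, while all genes gave 5241 higher and 3425 lower, then 3367 and 5354. For immature against double negative cells the members gave 4 higher and 17 lower, then 4 and 20, and all genes gave 4159 and 2590, then 2921 and 4426. Of the 24 calls between immature and mature cells, 14 held in the same direction under both scalings: Hmgcs1, Srebf2, Insig1, Scd1, Scd2, Npc2, Abca1 and Soat1 higher, and Fdft1, Sqle, Lss, Cyp51, Msmo1 and Insig2 lower. Of the 24 calls between immature and double negative cells 18 held, with Npc1, Abca1, Abcg1 and Soat1 as the 4 higher, and of the 25 between mature and double negative cells 22 held. Without double negative replicate 1, 15 members passed between immature and double negative cells.

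**Figure D1:**
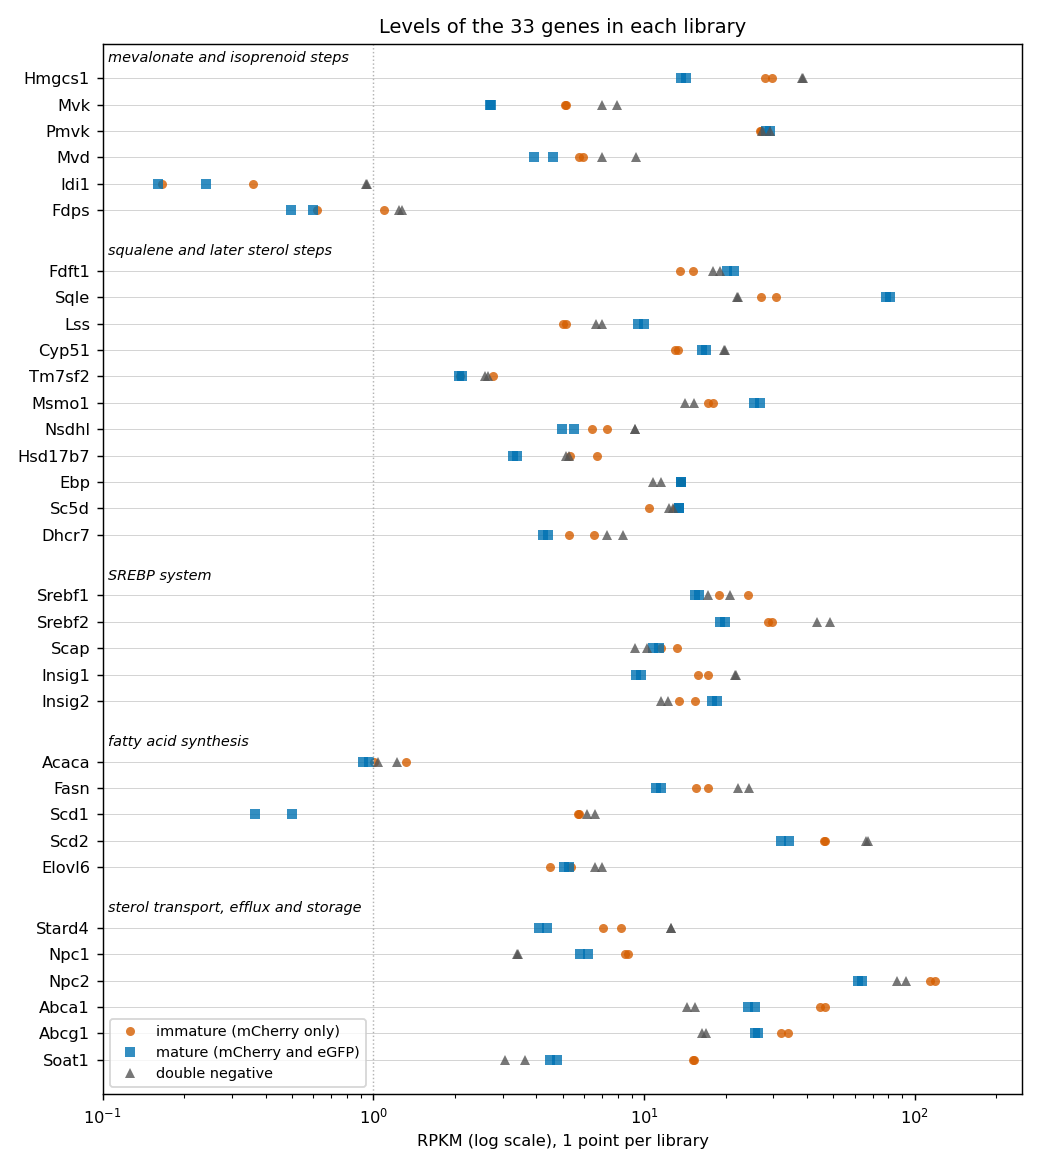
RPKM of each of the 33 genes on a log axis, 1 point per library, grouped by role, with circles for immature, squares for mature and triangles for double negative cells. The 2 libraries of a group lie close together for most genes, Sqle stands near 80 RPKM in mature cells alone, and Scd1 lies below 1 RPKM in mature cells alone.

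In Hmgcs1, Mvk and Mvd, 3 of the early genes, mature beta cells lay below both other groups. Of 5 tested genes of the mevalonate and isoprenoid steps, 3 were higher in immature than in mature cells and none lower. Of all tested genes 49.8% were higher and 15.5% lower. In mature against double negative cells 4 were lower and none higher (31.2% and 23.1% of all tested genes). In immature against double negative cells 3 were lower and none higher (10.6% and 45.9%). After median-ratio rescaling 2 were higher and 1 lower for immature against mature cells, and after quantile normalization 1 and 2, while those against double negative cells stayed lower, with 3 to 5 called and none higher. Of all tested genes, 31.9% and 25.8% were then lower in mature than in double negative cells. For immature against double negative cells these shares were 19.4% and 33.1%. For immature against mature cells, 39.2% were higher and 25.6% lower after median-ratio rescaling, and 25.2% and 40.1% after quantile normalization. Hmgcs1 (ENSMUSG00000093930.2, chromosome 13, 119690379 to 119708260, plus strand, GRCm38), the synthase that makes HMG-CoA, stood at 28.0 and 29.6 RPKM in immature, 14.3 and 13.7 RPKM in mature and 38.7 and 38.4 RPKM in double negative libraries. The groups did not overlap, and the immature libraries lay between the others. It was higher by 0.99 (SE 0.055) in immature than in mature cells (limma adjusted p = 3.64e-05) and fell by 1.40 (SE 0.055) in mature relative to double negative cells (limma adjusted p = 1.49e-05). Immature minus double negative was -0.41 (SE 0.055, limma adjusted p = 0.00167). An antisense gene, Gm48342, overlaps 12.1% of its exonic bases, and the strand used in counting is not given.

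Mvk, the mevalonate kinase, followed the same order. It stood at 5.15 and 5.09 RPKM in immature, 2.71 and 2.70 RPKM in mature and 7.95 and 7.01 RPKM in double negative libraries, with no overlap between groups. The log2 difference was 0.72 for immature minus mature, -1.19 for mature minus double negative and -0.47 for immature minus double negative cells, and limma called all 3 (adjusted p between 0.000118 and 0.00515), though quantile normalization left 0.07 for immature minus mature (limma adjusted p = 0.523). Mvd, the decarboxylase that makes isopentenyl diphosphate, measured 5.93 and 5.76 RPKM in immature, 4.60 and 3.94 RPKM in mature and 9.32 and 7.02 RPKM in double negative libraries. Its log2 differences were 0.38, -0.79 and -0.41 in the same order of comparisons, with limma adjusted p = 0.0499, 0.00412 and 0.045. The immature minus mature call was lost after either rescaling and without any of the 4 immature or mature libraries (limma adjusted p between 0.08 and 0.232). The immature minus double negative call was lost without any library other than double negative replicate 2 (limma adjusted p between 0.0706 and 0.2).

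The other genes of this stretch were level or low. Pmvk, the phosphomevalonate kinase, stood between 26.9 and 29.2 RPKM in all 6 libraries. Its difference was -0.08 (95% interval -0.22 to 0.05) for immature minus mature, 0.02 (-0.11 to 0.16) for mature minus double negative and -0.06 (-0.20 to 0.07) for immature minus double negative cells. Against the general shift in all genes this is a lower position, and after median-ratio rescaling immature minus mature was -0.30 (limma adjusted p = 0.00418). Fdps, the farnesyl diphosphate synthase, measured 1.09 and 0.620 RPKM in immature, 0.601 and 0.496 RPKM in mature and 1.27 and 1.24 RPKM in double negative libraries. It fell by 0.54 (SE 0.15) in mature relative to double negative cells (limma adjusted p = 0.0223), a call lost after quantile normalization and without any of those 4 libraries (limma adjusted p between 0.0874 and 0.134). The immature values rest on 11 and 9 reads, and 26.7% of its exonic bases overlap the gene Gm43738. Idi1, the isopentenyl diphosphate isomerase, stayed below 1 RPKM in every library and was not tested. It had 3 and 2 reads in immature, 20 and 15 in mature and 73 and 75 in double negative libraries, and 25.3% of its 50-base words also occur in other genes, chiefly the pseudogene Gm13502.

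From squalene onwards the direction differed from gene to gene and with the scaling. Of 11 genes of squalene and later sterol steps, 3 were higher and 5 lower for immature against mature cells (49.8% and 15.5% of all tested genes). In mature against double negative cells 4 were higher and 4 lower (23.1% and 31.2%). In immature against double negative cells 3 were higher and 5 lower (45.9% and 10.6%). After median-ratio rescaling, immature minus mature gave 1 higher and 7 lower and immature minus double negative 0 and 6, and after quantile normalization they gave 0 and 8, and 0 and 7. Of all tested genes, 39.2% were higher and 25.6% lower for immature minus mature after the first rescaling, and 25.2% and 40.1% after the second. For immature minus double negative the shares were 31.1% and 19.4%, then 21.9% and 33.1%. Sqle (ENSMUSG00000022351.14, chromosome 15, 59315077 to 59331192, plus strand, GRCm38), the squalene epoxidase and a rate-limiting enzyme of the pathway, stood at 27.0 and 30.8 RPKM in immature, 81.4 and 78.5 RPKM in mature and 22.1 and 22.3 RPKM in double negative libraries. Mature beta cells were high and the groups did not overlap. Sqle fell by 1.44 (SE 0.072) in immature relative to mature cells (limma adjusted p = 2.5e-05) and higher by 1.80 (SE 0.072) in mature than in double negative cells (limma adjusted p = 1.57e-05). The smaller difference of 0.36 (SE 0.072) between immature and double negative cells (limma adjusted p = 0.0074) fell below the threshold after rescaling, at 0.16 (limma adjusted p = 0.152) and 0.11 (limma adjusted p = 0.306).

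Lss and Msmo1 were also highest in mature beta cells. Lss, which cyclizes epoxidized squalene to lanosterol, measured 5.15 and 5.03 RPKM in immature, 10.0 and 9.50 RPKM in mature and 7.01 and 6.62 RPKM in double negative libraries. The immature libraries lay below both other groups, with a difference of -0.82 (SE 0.07) from mature cells (limma adjusted p = 0.000193) and -0.36 (SE 0.07) from double negative cells. Msmo1, the methylsterol monooxygenase, measured 17.9 and 17.2 RPKM in immature, 26.7 and 25.4 RPKM in mature and 14.2 and 15.3 RPKM in double negative libraries. Here the immature libraries lay between the others, -0.54 (SE 0.063) from mature cells (limma adjusted p = 0.000651), and the 0.24 above double negative cells (limma adjusted p = 0.0199) ended after median-ratio rescaling and turned sign after quantile normalization.

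Fdft1 and Cyp51 were lowest in the immature libraries. Fdft1, the squalene synthase, stood at 13.6 and 15.1 RPKM in immature, 20.3 and 21.5 RPKM in mature and 19.1 and 17.9 RPKM in double negative libraries. It fell by 0.52 (SE 0.074) in immature relative to mature cells (limma adjusted p = 0.00153), and mature minus double negative was 0.17 (95% interval -0.01 to 0.35). The protease gene Ctsb overlaps 18.3% of its exonic bases. Cyp51, the lanosterol demethylase, stood at 13.1 and 13.4 RPKM in immature, 17.0 and 16.4 RPKM in mature and 19.9 and 19.7 RPKM in double negative libraries. Its differences were -0.31, -0.24 and -0.55 for immature minus mature, mature minus double negative and immature minus double negative cells, all past the threshold (limma adjusted p = 0.00327, 0.0125 and 0.000509). The mature minus double negative call of Cyp51 was lost without any of those 4 libraries (limma adjusted p between 0.0564 and 0.117), and without double negative replicate 1 the immature minus double negative calls of Fdft1 and Lss ended (limma adjusted p = 0.0661 and 0.0522).

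Nsdhl, Hsd17b7 and Dhcr7 were lowest in mature beta cells. Nsdhl, a sterol dehydrogenase of demethylation, measured 7.32 and 6.40 RPKM in immature, 5.50 and 4.97 RPKM in mature and 9.28 and 9.25 RPKM in double negative libraries. Dhcr7, the reductase that completes cholesterol, measured 5.30 and 6.51 RPKM, 4.23 and 4.43 RPKM, and 8.35 and 7.31 RPKM in immature, mature and double negative libraries. Both showed separate groups with immature libraries in the middle, and both fell in mature relative to double negative cells, with differences of -0.72 (limma adjusted p = 0.00102) and -0.73 (limma adjusted p = 0.00269). Hsd17b7, a keto-steroid reductase of the same steps, stood at 6.71 and 5.34 RPKM in immature, 3.40 and 3.29 RPKM in mature and 5.28 and 5.14 RPKM in double negative libraries. Immature cells were higher by 0.69 (SE 0.11) than mature cells (limma adjusted p = 0.00235) and mature cells fell by 0.52 relative to double negative cells (limma adjusted p = 0.00931).

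Several of these calls were not stable. Immature minus mature was 0.33 for Nsdhl and 0.37 for Dhcr7 (limma adjusted p = 0.0172 and 0.0296), and both ended after either rescaling. Nsdhl also lost that call without mature replicate 2 (limma adjusted p = 0.122), and Dhcr7 without any library but immature replicate 1 (limma adjusted p between 0.05 and 0.134). Immature minus double negative was -0.39 for Nsdhl and -0.36 for Dhcr7, with that of Nsdhl lost without either double negative library (limma adjusted p = 0.0713 and 0.0672) and that of Dhcr7 without any library but immature replicate 2 (limma adjusted p between 0.0692 and 0.197) or with the replicate number as a block (limma adjusted p = 0.0585). For Msmo1 the same comparison ended without double negative replicate 1 or either mature library (limma adjusted p between 0.0538 and 0.104). Both calls of Hsd17b7 ended after quantile normalization, and that of mature minus double negative cells also without any of those 4 libraries (limma adjusted p between 0.0519 and 0.0638).

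The remaining 3 genes of these steps differed little as deposited. Ebp, the sterol isomerase, stood between 13.7 and 13.8 RPKM in all 4 beta cell libraries, which overlapped, against 11.5 and 10.8 RPKM in double negative libraries. It was higher by 0.27 (SE 0.059) in mature than in double negative cells (limma adjusted p = 0.0101), a call lost without double negative replicate 2 or either mature library (limma adjusted p between 0.0615 and 0.0838). The 0.27 of immature minus double negative cells ended after median-ratio rescaling, turned sign after quantile normalization, and ended without double negative replicate 2 (limma adjusted p = 0.0596). Sc5d, the sterol desaturase, ranged from 10.5 to 13.5 RPKM over the 6 libraries and Tm7sf2, a sterol reductase, from 2.08 to 2.76 RPKM. Their groups overlapped, with no call in any comparison as deposited. Immature minus mature was -0.19 (95% interval -0.44 to 0.07) for Sc5d and 0.14 (-0.15 to 0.43) for Tm7sf2, which turned sign after either rescaling, and Vps51 overlaps 12.1% of the exonic bases of Tm7sf2. Median-ratio rescaling gave calls of -0.39 for Sc5d and -0.21 for Ebp in this comparison (limma adjusted p = 0.0127 and 0.0253). Quantile normalization gave -0.49 for Sc5d, -0.29 for Ebp and -0.65 for Tm7sf2 (limma adjusted p = 0.00715, 0.00767 and 0.00384).

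**Figure D2:**
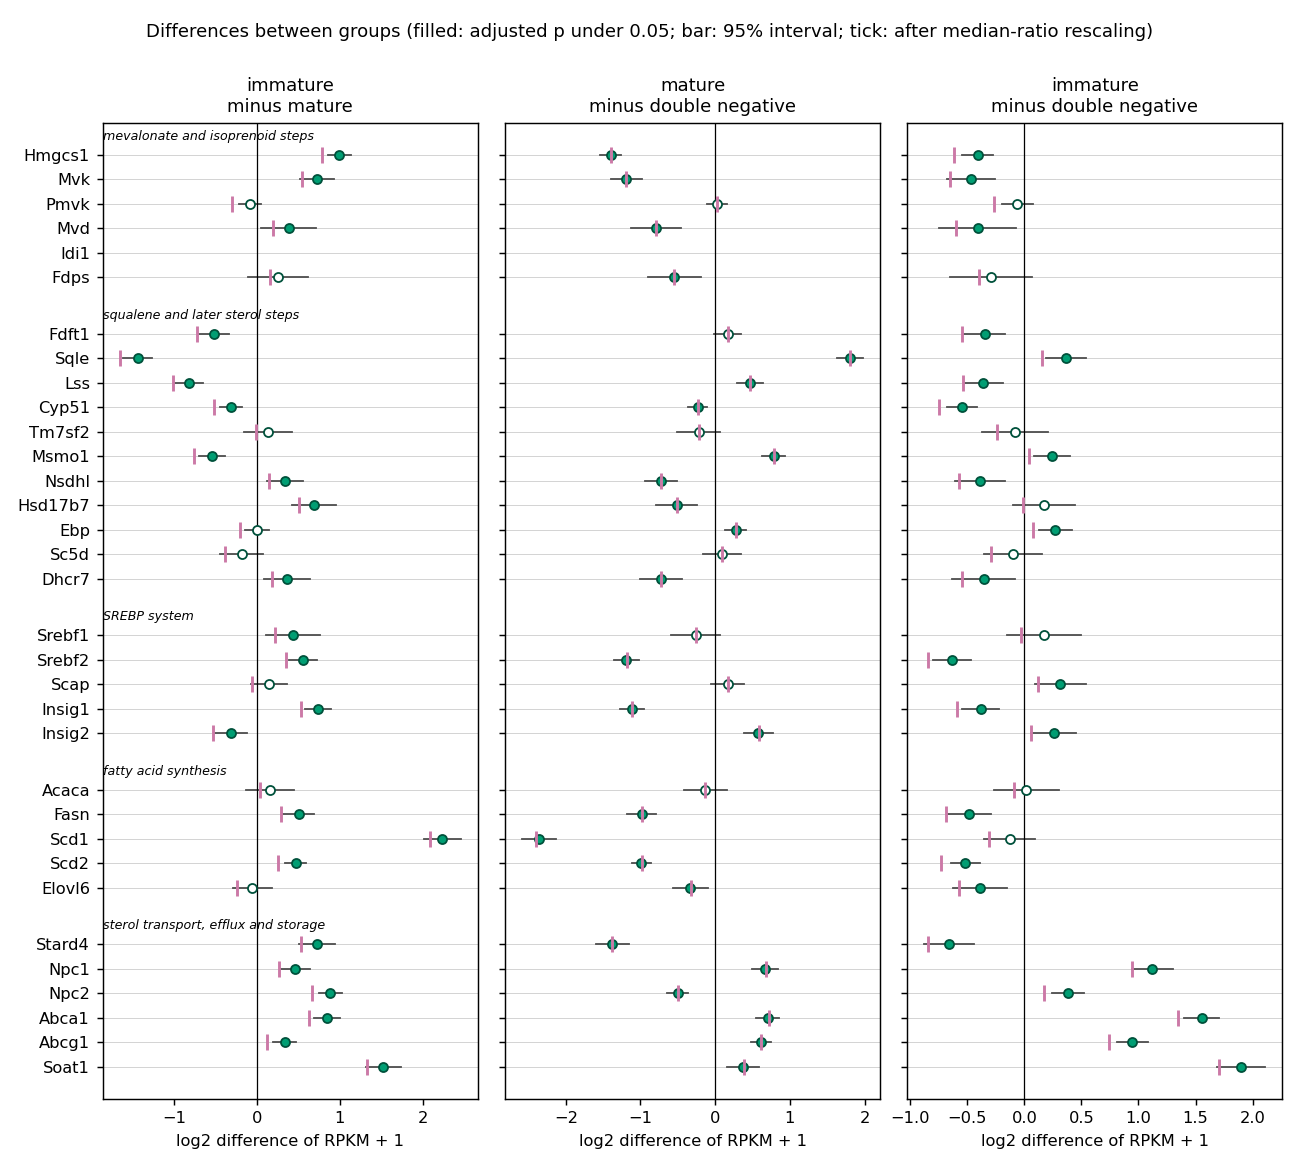
Log2 differences of RPKM + 1 for the 32 tested genes in immature minus mature, mature minus double negative and immature minus double negative cells, with 95% intervals, filled points for a limma adjusted p under 0.05 and ticks for the value after median-ratio rescaling. In the left panel the widest departures are Scd1 (2.23), Soat1 (1.53) and Sqle (-1.44). Those of the middle panel are Scd1 (-2.36) and Sqle (1.80), and those of the right panel are Soat1 and Abca1, both higher in immature cells. The ticks lie to the left of the points in both panels with immature cells.

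The proximal promoters of 4 genes are shown because Hmgcs1 and Mvk had the highest and Sqle and Lss the lowest immature minus mature differences among sterol synthesis genes, and Insig1 is the regulator described next. Each is the 250 bases before the annotated start, from RefSeq on GRCm38, plus strand, and no window for Sqle was used. Capitals mark 4 motifs searched on both strands: TCACNCCAC, an SREBP element; CCAAT, the NF-Y box, which reads ATTGG on the other strand; GGGCGG, the GC box, which reads CCGCCC; and CACGTG, an E-box.
Hmgcs1, chr13:119690101-119690350: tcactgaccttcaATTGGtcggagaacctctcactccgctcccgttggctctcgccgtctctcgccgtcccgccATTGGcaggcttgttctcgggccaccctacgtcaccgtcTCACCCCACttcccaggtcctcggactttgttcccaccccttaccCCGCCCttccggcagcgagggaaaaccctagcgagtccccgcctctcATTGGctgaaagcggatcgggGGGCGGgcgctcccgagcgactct
Mvk, chr5:114444019-114444268: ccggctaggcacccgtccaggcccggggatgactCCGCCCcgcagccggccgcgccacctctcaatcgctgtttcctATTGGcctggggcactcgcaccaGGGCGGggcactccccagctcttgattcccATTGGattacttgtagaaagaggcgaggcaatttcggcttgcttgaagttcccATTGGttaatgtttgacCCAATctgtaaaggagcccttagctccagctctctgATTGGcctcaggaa
Lss, chr10:76531355-76531604: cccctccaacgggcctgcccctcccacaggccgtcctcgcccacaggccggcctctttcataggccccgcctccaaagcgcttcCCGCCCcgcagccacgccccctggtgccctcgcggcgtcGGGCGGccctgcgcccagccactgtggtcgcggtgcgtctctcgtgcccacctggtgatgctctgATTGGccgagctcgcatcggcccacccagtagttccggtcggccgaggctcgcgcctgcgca
Insig1, chr5:28071162-28071411: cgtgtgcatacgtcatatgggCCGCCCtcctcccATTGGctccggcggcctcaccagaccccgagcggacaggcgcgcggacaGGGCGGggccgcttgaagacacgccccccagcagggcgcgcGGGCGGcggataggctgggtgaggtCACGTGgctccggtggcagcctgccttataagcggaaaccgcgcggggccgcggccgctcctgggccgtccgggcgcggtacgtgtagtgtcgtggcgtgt

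The Hmgcs1 window held the only SREBP element match among 25 members with a window (4.0%, against 1.23% of 9689 tested genes with one), 137 bases before the start, with 3 NF-Y boxes and 2 GC boxes. Mvk held 5 NF-Y boxes and 2 GC boxes, Lss 1 and 2, and Insig1 1 NF-Y box, 3 GC boxes and an E-box 101 bases before the start. Among the members, 21 (84.0%) held an NF-Y box, against 39.6% of tested genes, 20 (80.0%) a GC box, against 64.1%, and 6 (24.0%) an E-box, against 10.1%. Of the members, 5 have several windows, which were all searched, and a match in letters is not a bound site.

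Sqle and Hmgcs1, which had the lowest and the highest immature minus mature difference among sterol synthesis genes, were also compared within single libraries, where scaling cancels. The ratio describes this chosen pair and not the late and early steps as a whole. Because the pair was picked on that difference, a ratio that separates mature from immature libraries follows from the choice and adds no support. The RPKM ratio of Sqle to Hmgcs1 was 0.962 and 1.04 in immature, 5.70 and 5.74 in mature and 0.569 and 0.581 in double negative libraries. Mature beta cells thus held far more squalene epoxidase RNA per length for each HMG-CoA synthase RNA, and the 3 groups did not overlap. The ratio of these genes in immature libraries was nearer to that of double negative than of mature cells. The alpha cell marker sums lay in the same order as Hmgcs1, highest in double negative and lowest in mature libraries, and their part in this was not tested.

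**Figure D3:**
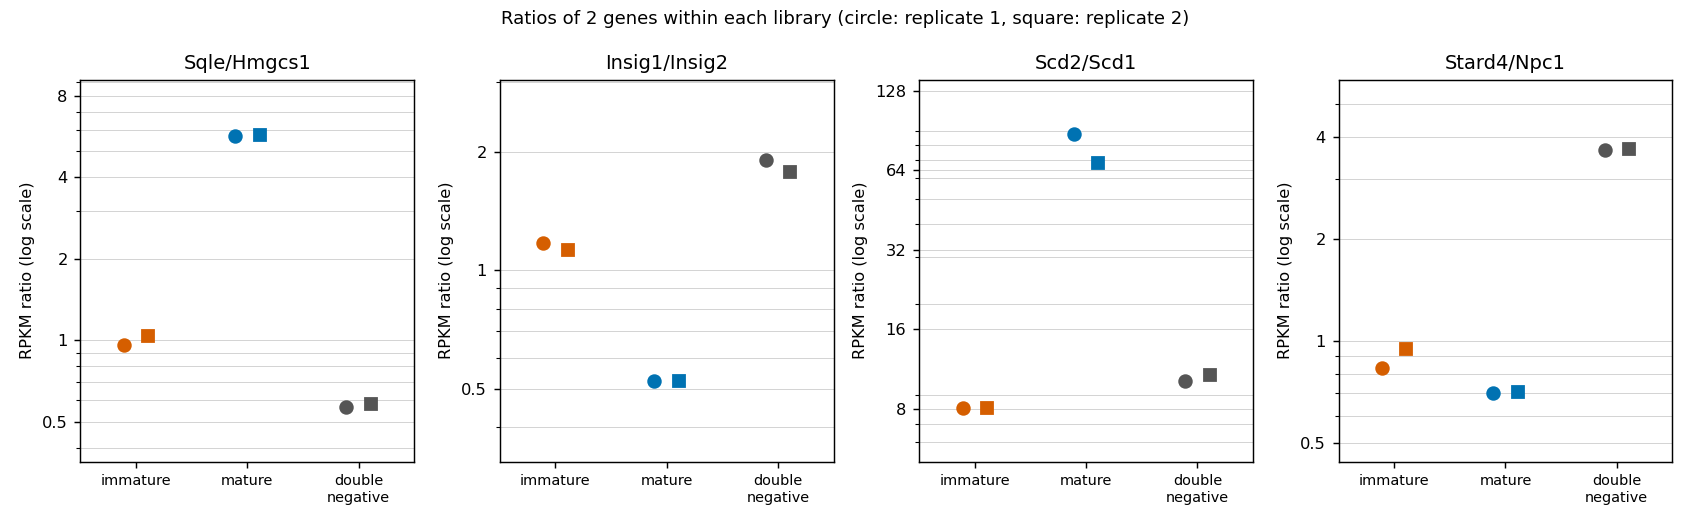
RPKM ratios of Sqle to Hmgcs1, Insig1 to Insig2, Scd2 to Scd1 and Stard4 to Npc1 within each library on log axes, with circles for replicate 1 and squares for replicate 2. For Sqle to Hmgcs1 the mature libraries stand at 5.70 and 5.74, and for Stard4 to Npc1 the double negative libraries stand apart at 3.68 and 3.70.

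In the SREBP system, Insig1 and Insig2 ordered the groups in opposite ways. Of its 5 genes, 3 were higher and 1 lower for immature against mature cells (49.8% and 15.5% of all tested genes). For mature against double negative cells 1 was higher and 2 lower (23.1% and 31.2%). For immature against double negative cells 2 were higher and 2 lower (45.9% and 10.6%). After either rescaling the first comparison gave 2 and 1, and the last 0 and 2. Shares of all tested genes after median-ratio rescaling were 39.2% and 25.6% for the first and 31.1% and 19.4% for the last. After quantile normalization they were 25.2% and 40.1%, and 21.9% and 33.1%. Insig1, which retains SCAP in the endoplasmic reticulum and is itself a target of SREBP, stood at 15.8 and 17.2 RPKM in immature, 9.73 and 9.32 RPKM in mature and 22.0 and 21.8 RPKM in double negative libraries. The groups were separate, with differences of 0.73 (SE 0.065, limma adjusted p = 0.000218) for immature minus mature, -1.12 (SE 0.065, limma adjusted p = 5.57e-05) for mature minus double negative and -0.38 (SE 0.065, limma adjusted p = 0.00393) for immature minus double negative cells. Insig2, its paralog that is not induced by SREBP, stood at 13.5 and 15.4 RPKM in immature, 18.6 and 17.8 RPKM in mature and 11.5 and 12.2 RPKM in double negative libraries, the reverse order. It fell by 0.32 (SE 0.079) in immature relative to mature cells (limma adjusted p = 0.0139) and higher by 0.58 (SE 0.079) in mature than in double negative cells (limma adjusted p = 0.00166). The ratio of Insig1 to Insig2 was 1.17 and 1.12 in immature, 0.523 and 0.524 in mature and 1.90 and 1.78 in double negative libraries, so Insig2 was the more abundant of the pair in mature beta cells alone.

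Srebf2, which encodes the SREBP that mainly drives sterol genes, measured 28.7 and 29.8 RPKM in immature, 19.1 and 19.97 RPKM in mature and 48.5 and 43.5 RPKM in double negative libraries, with no overlap. Immature cells were higher by 0.56 (SE 0.068) than mature cells (limma adjusted p = 0.000808) and mature cells fell by 1.19 (SE 0.068) relative to double negative cells (limma adjusted p = 5.43e-05). Immature minus double negative was -0.63 (limma adjusted p = 0.000727). Srebf1, which encodes the SREBP of fatty acid genes, differed less, at 19.0 and 24.2 RPKM in immature, 15.4 and 15.9 RPKM in mature and 20.7 and 17.3 RPKM in double negative libraries, where immature and double negative libraries overlapped. Its 0.43 (SE 0.13) of immature minus mature cells (limma adjusted p = 0.0302) ended after either rescaling and without immature replicate 2 or either mature library (limma adjusted p between 0.0771 and 0.12). Scap, the escort, measured 11.5 and 13.3 RPKM in immature, 11.4 and 10.8 RPKM in mature and 10.2 and 9.29 RPKM in double negative libraries, and immature minus mature was 0.15 (95% interval -0.07 to 0.37), which turned sign after either rescaling.

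In immature against double negative cells, Scap was higher by 0.32 and Insig2 by 0.26 (limma adjusted p = 0.0264 and 0.0348). Both calls ended after either rescaling and without any library but immature replicate 1, with limma adjusted p between 0.055 and 0.141 for Scap and between 0.0676 and 0.163 for Insig2. The immature minus mature call of Insig2 ended without either mature library (limma adjusted p = 0.0938 and 0.0577) but held after both rescalings, at -0.53 and -0.56.

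Of the 5 fatty acid synthesis genes, Fasn, Scd1, Scd2 and Elovl6 were lower in mature than in double negative cells and none was higher. Of all tested genes 31.2% were lower and 23.1% higher. Between immature and mature cells 3 were higher and none lower (49.8% and 15.5% of all tested genes). These counts became 3 and 1 after median-ratio rescaling (39.2% and 25.6%) and 2 and 2 after quantile normalization (25.2% and 40.1%). Between immature and double negative cells 3 were lower and none higher (10.6% and 45.9%). After median-ratio rescaling 4 and after quantile normalization 5 were lower, with none higher. Of all tested genes 19.4% were lower and 31.1% higher after the first, and 33.1% and 21.9% after the second. Scd1 (ENSMUSG00000037071.3, chromosome 19, 44394455 to 44407879, minus strand, GRCm38), a stearoyl-CoA desaturase that makes oleate, stood at 5.70 and 5.76 RPKM in immature, 0.366 and 0.501 RPKM in mature and 6.60 and 6.13 RPKM in double negative libraries. Only the mature libraries were low, and no groups overlapped. Scd1 was higher by 2.23 (SE 0.091) in immature than in mature cells (limma adjusted p = 1.13e-05), which on the RPKM scale is a 13.2-fold ratio of means. It fell by 2.36 (SE 0.091) in mature relative to double negative cells (limma adjusted p = 1.4e-05), and immature minus double negative was -0.13 (95% interval -0.35 to 0.09).

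Scd2, a second desaturase at the same locus on chromosome 19, was the higher of the pair in every library. It measured 46.1 and 46.6 RPKM in immature, 32.2 and 34.3 RPKM in mature and 67.5 and 66.2 RPKM in double negative libraries, again with the groups apart. Its differences were smaller than those of Scd1, at 0.47 (SE 0.051) for immature minus mature, -0.99 (SE 0.051) for mature minus double negative and -0.52 (SE 0.051) for immature minus double negative cells (limma adjusted p = 0.000518, 3.92e-05 and 0.00053). The ratio of Scd2 to Scd1 was 8.09 and 8.10 in immature, 87.9 and 68.4 in mature and 10.2 and 10.8 in double negative libraries. The mature values of Scd1 rest on about 42.5 and 65.8 reads, and the gene shares 4.56% of its 50-base words with other genes, among them other Scd genes.

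Fasn, the fatty acid synthase, measured 17.2 and 15.5 RPKM in immature, 11.0 and 11.5 RPKM in mature and 24.4 and 22.2 RPKM in double negative libraries, with separate groups. Its differences were 0.50 (SE 0.078), -0.98 (SE 0.078) and -0.48 (SE 0.078) in the order immature minus mature, mature minus double negative and immature minus double negative cells, all past the threshold (limma adjusted p = 0.00211, 0.00018 and 0.00329). After quantile normalization immature minus mature was 0.20 (limma adjusted p = 0.0582). Elovl6, which elongates palmitate, stood at 5.39 and 4.51 RPKM in immature, 5.28 and 5.06 RPKM in mature and 6.58 and 6.96 RPKM in double negative libraries, where the 2 kinds of beta cell overlapped and lay below double negative cells. Its immature minus mature difference was called after median-ratio rescaling at -0.24 and after quantile normalization at -0.60 (limma adjusted p = 0.0488 and 0.00237). Mature minus double negative was -0.33 (limma adjusted p = 0.0283) and ended after quantile normalization and without any of those 4 libraries (limma adjusted p between 0.0895 and 0.152), and immature minus double negative was -0.39 (limma adjusted p = 0.016) and ended without either double negative library (limma adjusted p = 0.0653 and 0.0959). Acaca, acetyl-CoA carboxylase, lay between 0.915 and 1.32 RPKM in all libraries with no call as deposited. Immature minus mature was 0.15 (95% interval -0.13 to 0.44), and -0.64 after quantile normalization (limma adjusted p = 0.00327). Of its 50-base words, 30.4% also occur in other genes, chiefly the pseudogene Gm5182, so its level is uncertain.

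Of the 6 genes of sterol transport, efflux and storage, all were higher in immature than in mature cells (49.8% of all tested genes). In mature against double negative cells 4 were higher and 2 lower (23.1% and 31.2%). In immature against double negative cells 5 were higher and 1 lower (45.9% and 10.6%). After median-ratio rescaling 5, and after quantile normalization 4, were higher in immature than in mature cells (39.2% and 25.2% of all tested genes). Under both, 4 were higher and 1 lower in immature than in double negative cells. The shares of all tested genes there were 31.1% and 19.4%, then 21.9% and 33.1%. Soat1 (ENSMUSG00000026600.12, chromosome 1, 156424525 to 156474331, minus strand, GRCm38), which esterifies cholesterol for storage, stood at 15.2 and 15.2 RPKM in immature, 4.50 and 4.76 RPKM in mature and 3.07 and 3.63 RPKM in double negative libraries. The immature libraries were high and the groups did not overlap. Soat1 was higher by 1.53 (SE 0.086) in immature than in mature cells (limma adjusted p = 4.03e-05) and by 1.90 (SE 0.086) than in double negative cells (limma adjusted p = 3.73e-05). Mature minus double negative was 0.37 (limma adjusted p = 0.0131), a call lost without double negative replicate 1 or either mature library (limma adjusted p between 0.0597 and 0.0961).

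Abca1, the pump that loads cholesterol onto apolipoprotein A-I, measured 44.5 and 46.8 RPKM in immature, 25.7 and 24.2 RPKM in mature and 14.4 and 15.4 RPKM in double negative libraries, a clear order. It differed by 0.85 (SE 0.063, limma adjusted p = 0.000114) for immature minus mature, 0.71 (SE 0.063, limma adjusted p = 0.000287) for mature minus double negative and 1.55 (SE 0.063, limma adjusted p = 2.54e-05) for immature minus double negative cells. Abcg1, which exports cholesterol to lipoprotein particles, measured 32.2 and 34.0 RPKM in immature, 26.5 and 25.6 RPKM in mature and 16.9 and 16.4 RPKM in double negative libraries. The order was the same, with 0.33 (limma adjusted p = 0.00281) for immature minus mature, which fell below the threshold after median-ratio rescaling at 0.12 (limma adjusted p = 0.125), and with 0.61 for mature minus double negative and 0.95 for immature minus double negative cells (limma adjusted p = 0.000309 and 8.18e-05).

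Npc1 and Npc2, which together move cholesterol out of lysosomes, ordered the groups differently. Npc1 measured 8.49 and 8.73 RPKM in immature, 6.23 and 5.79 RPKM in mature and 3.42 and 3.40 RPKM in double negative libraries, with 0.46 (limma adjusted p = 0.00233) for immature minus mature, 0.67 (limma adjusted p = 0.000636) for mature minus double negative and 1.12 (limma adjusted p = 0.000114) for immature minus double negative cells. Quantile normalization left 0.01 for immature minus mature (limma adjusted p = 0.866). Npc2 measured 119 and 114 RPKM in immature, 61.9 and 63.6 RPKM in mature and 92.5 and 86.1 RPKM in double negative libraries, so mature cells were lowest. It was higher by 0.88 (SE 0.056) in immature than in mature cells (limma adjusted p = 6.36e-05) and fell by 0.50 in mature relative to double negative cells (limma adjusted p = 0.000737), and the 0.38 of immature minus double negative cells ended after both rescalings.

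Stard4, a cytosolic sterol carrier and SREBP target, had the order of Hmgcs1. It measured 7.03 and 8.25 RPKM in immature, 4.37 and 4.09 RPKM in mature and 12.6 and 12.6 RPKM in double negative libraries, and the groups did not overlap. The differences were 0.72 (limma adjusted p = 0.000833) for immature minus mature, -1.38 (limma adjusted p = 8.3e-05) for mature minus double negative and -0.66 (limma adjusted p = 0.00173) for immature minus double negative cells, and quantile normalization ended the first at 0.20 (limma adjusted p = 0.131). The ratio of Stard4 to Npc1 was 0.828 and 0.945 in immature, 0.702 and 0.706 in mature and 3.68 and 3.70 in double negative libraries. The double negative libraries stood far above both kinds of beta cell, and no groups overlapped. Macrophage and immune, endothelial, mesenchymal and acinar marker sums were higher in immature than in both other groups, as were 5 of these 6 genes, and the part of those cells in the result was not tested.

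**Figure D4:**
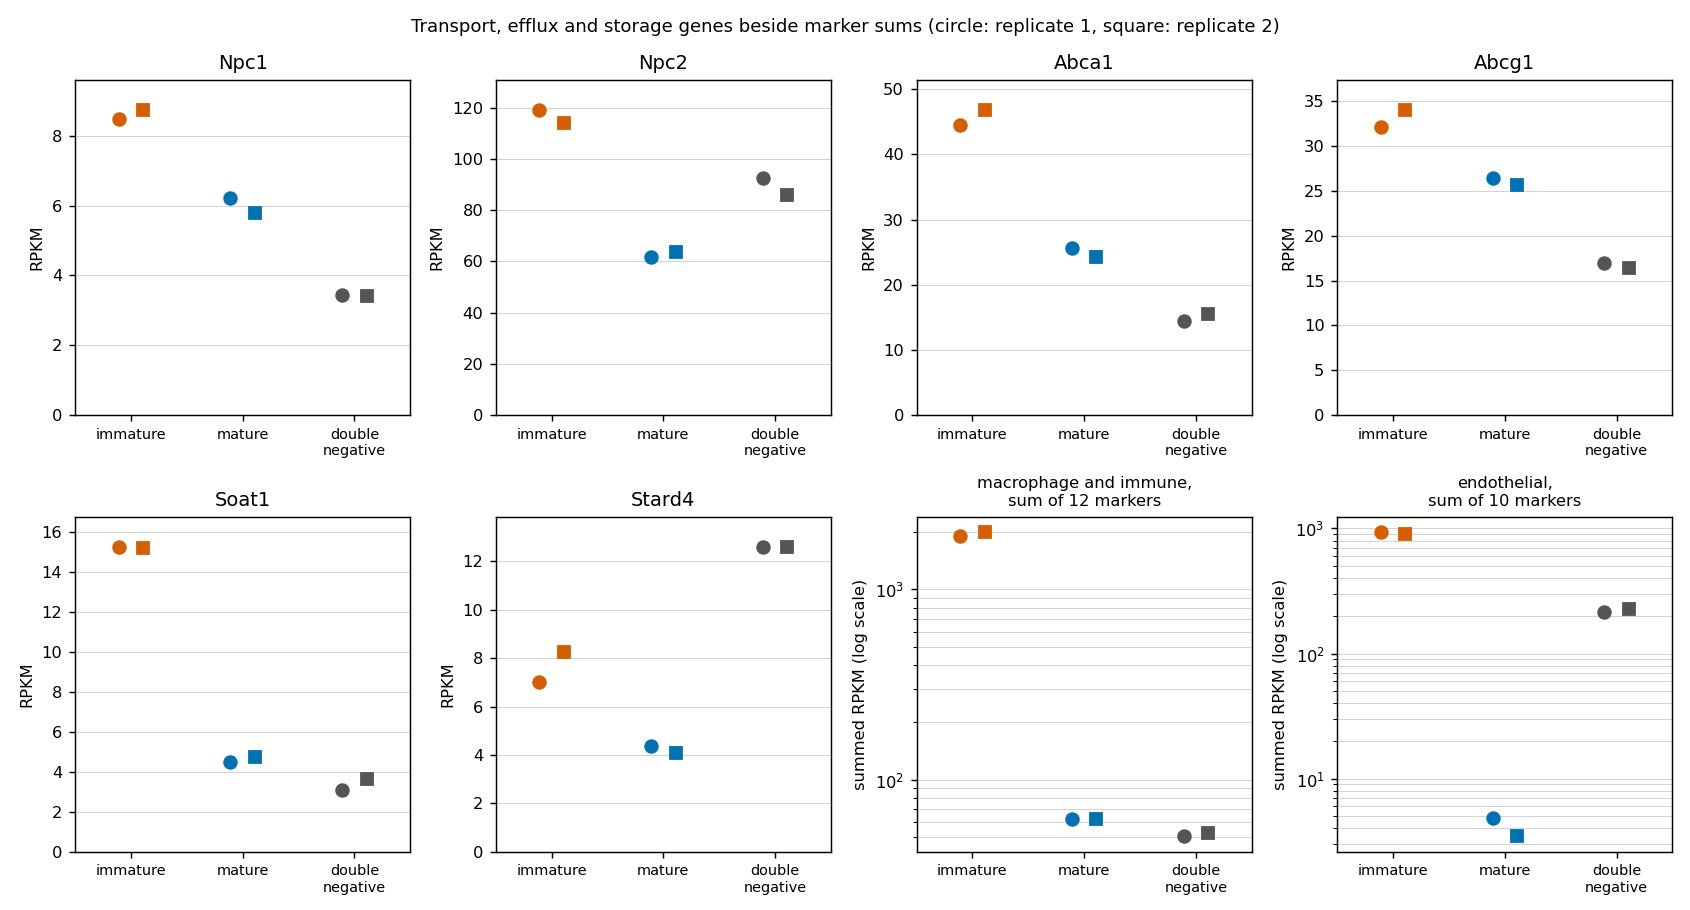
RPKM of 6 transport, efflux and storage genes per library, from 0, beside the summed RPKM of 12 macrophage and immune and 10 endothelial markers on log axes, with circles for replicate 1 and squares for replicate 2. Abca1, Abcg1, Npc1, Npc2 and Soat1 are highest in the immature libraries, where both marker sums are also highest, and Stard4 is highest in double negative libraries.

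The placing of immature cells relative to both other groups was counted by libraries that do not overlap. Immature libraries lay between mature and double negative libraries for 15 of 32 members, against 18.6% of all tested genes. They lay above both for 7 (Hsd17b7, Scap, Npc1, Npc2, Abca1, Abcg1 and Soat1), against 42.4% of all genes, and below both for 4 (Pmvk, Fdft1, Lss and Cyp51), against 6.07%. In 12 members all 3 groups were separate with double negative cells highest and mature cells lowest: Hmgcs1, Mvk, Mvd, Fdps, Nsdhl, Dhcr7, Srebf2, Insig1, Fasn, Scd1, Scd2 and Stard4. The share of all genes in this order was not counted, and all placings use the deposited scale only. Separate libraries are not calls: limma did not call Fdps for immature minus mature (adjusted p = 0.179) or Scd1 for immature minus double negative cells. In Sqle, Msmo1 and Insig2 mature cells were highest and double negative cells lowest, so that the immature libraries were between in either direction. The beta cell marker sums of immature libraries also lay between those of mature and double negative libraries, and their part in this was not tested.

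Other genes of the same pathways were counted by list. Of 5 other sterol synthesis genes, 4 were higher and none lower for immature against mature cells (49.8% and 15.5% of all tested genes). For mature against double negative cells none was higher and 4 were lower (23.1% and 31.2%). For immature against double negative cells 1 was higher and 2 were lower (45.9% and 10.6%). Quantile normalization left 1 higher and none lower in the first comparison (25.2% and 40.1%). In the last it gave none higher and 4 lower (21.9% and 33.1%). Acat2, the thiolase that feeds HMG-CoA synthase, differed by 0.76 for immature minus mature (limma adjusted p = 0.00176) and -0.87 for mature minus double negative cells (limma adjusted p = 0.0013), the first ending after quantile normalization at 0.06. Lbr, a sterol reductase of the nuclear envelope, was higher by 0.41 in immature than in double negative cells (limma adjusted p = 0.0204), which ended after median-ratio rescaling at 0.23.

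Of 16 other genes of fatty acid and glycerolipid synthesis, 14 were tested. For immature against mature cells 6 were higher and 4 lower (49.8% and 15.5% of all tested genes). In mature against double negative cells 5 were higher and 3 lower (23.1% and 31.2%). In immature against double negative cells 9 were higher and 3 lower (45.9% and 10.6%). The split for immature against mature cells became 3 and 4 after median-ratio rescaling and 2 and 7 after quantile normalization. All tested genes then split into 39.2% higher and 25.6% lower, and into 25.2% and 40.1%. The split for immature against double negative cells became 7 and 4, then 4 and 5. Shares of all tested genes were then 31.1% higher and 19.4% lower, and 21.9% and 33.1%. Fads2, a desaturase of polyunsaturated fatty acids, stood at 9.42 and 10.4 RPKM in immature, 1.62 and 2.47 RPKM in mature and 28.2 and 26.8 RPKM in double negative libraries. The groups were widely apart, with 1.85, -3.24 and -1.39 for immature minus mature, mature minus double negative and immature minus double negative cells (limma adjusted p = 0.000122, 1.97e-05 and 0.000556). Elovl1, an elongase of very long chains, was higher by 0.76 in immature than in mature cells (limma adjusted p = 0.000133). Dgat2, which completes triglycerides, was low in double negative cells, with 7.24 and 6.70 RPKM in immature, 7.66 and 7.87 RPKM in mature and 1.83 and 2.81 RPKM in double negative libraries. Dgat2 was higher by 1.41 in mature than in double negative cells (limma adjusted p = 0.00053) and by 1.28 in immature than in double negative cells (limma adjusted p = 0.000907), and Elovl5, an elongase of polyunsaturated chains, was higher by 1.07 in mature than in double negative cells (limma adjusted p = 0.000156). Acly, the citrate lyase that supplies cytosolic acetyl-CoA, is named after its values were seen, because it differed from most of the 5 fatty acid synthesis genes. It was higher by 0.81 in mature than in double negative cells (limma adjusted p = 7.45e-05), at 519 and 524 RPKM in mature and 302 and 291 RPKM in double negative libraries.

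Of 9 other regulators and uptake genes, 5 were higher and 1 lower for immature against mature cells (49.8% and 15.5% of all tested genes). In mature against double negative cells 2 were higher and 4 lower (23.1% and 31.2%). In immature against double negative cells 4 were higher and 3 lower (45.9% and 10.6%). Immature against mature cells gave 4 and 1, then 5 and 3, after the 2 rescalings, and immature against double negative cells 3 and 3 after both. All tested genes gave 39.2% and 25.6%, then 25.2% and 40.1%, for the first comparison. They gave 31.1% and 19.4%, then 21.9% and 33.1%, for the second. Nr1h3, which encodes LXR alpha, the receptor that induces Abca1 and Abcg1, stood at 8.97 and 7.72 RPKM in immature, 3.55 and 3.37 RPKM in mature and 0.739 and 0.822 RPKM in double negative libraries. This was the order of Abca1, with 1.06 for immature minus mature, 1.32 for mature minus double negative and 2.39 for immature minus double negative cells (limma adjusted p = 0.000271, 0.000147 and 2.68e-05). Mylip, an LXR-induced ubiquitin ligase for lipoprotein receptors, was higher by 1.94 in immature than in mature cells and by 1.02 than in double negative cells (limma adjusted p = 6.49e-06 and 0.000117). Mature minus double negative was -0.92 for Mylip (limma adjusted p = 0.000129), the opposite direction to Nr1h3 and Abca1. Erlin1, which helps restrain SREBP activation, was higher by 1.11 in mature than in double negative cells (limma adjusted p = 0.00195).

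Of 7 other transport and storage genes, 4 were higher and 2 lower for immature against mature cells (49.8% and 15.5% of all tested genes). In mature against double negative cells 2 were higher and 2 lower (23.1% and 31.2%). In immature against double negative cells 6 were higher and none lower (45.9% and 10.6%). After quantile normalization these were 3 and 2, 4 and 1, and 4 and 0. All tested genes then gave 25.2% and 40.1%, 25.5% and 25.8%, and 21.9% and 33.1%. Lipa, the lysosomal acid lipase that frees cholesterol from its esters, stood at 66.0 and 64.3 RPKM in immature, 4.87 and 4.52 RPKM in mature and 4.46 and 4.45 RPKM in double negative libraries. Apoe, an apolipoprotein abundant in macrophages, stood at 350.2 and 407 RPKM, 1.11 and 1.07 RPKM, and 5.33 and 5.98 RPKM in the same order of groups. Both were far higher in the immature libraries, by 3.54 and 7.50 over mature cells (limma adjusted p = 1.03e-06 and 4.29e-07) and by 3.60 and 5.83 over double negative cells (limma adjusted p = 2.65e-06 and 2.64e-06). Apoe also fell by 1.67 in mature relative to double negative cells (limma adjusted p = 4.59e-05). Scarb1, a lipoprotein receptor, was higher by 1.33 in immature than in mature cells (limma adjusted p = 0.000137), and Osbp, an oxysterol-binding transfer protein, was higher by 0.83 in mature than in double negative cells (limma adjusted p = 6.47e-05). The 12 macrophage and immune markers were also higher in the immature libraries than in both other groups, and their part in these values was not tested.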

How the data were processed

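Gene expression was measured by RNA sequencing (TruSeq RNA kit, per the labels' protocols) in 6 libraries. The authors deposited 1 table of RPKM values, with 1 column per library matched by title. STAR 2.5, featureCounts, edgeR 3.14.0 and GRCm38.p4 are listed in the submitters' processing notes. The annotation release, strand setting and treatment of reads with several matches are not given in the labels or file. RPKM is relative to the library total: Ins2 held 12.0% and 12.4% of summed RPKM in immature, 33.2% and 34.8% in mature and 0.263% and 0.563% in double negative libraries.

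Genes with at least 1 RPKM in at least 2 libraries entered a limma 3.58.1 fit (R 4.3.3) of log2(RPKM + 1), with group means over all 6 libraries, an intensity trend, 3 residual degrees of freedom and Benjamini-Hochberg adjustment over 13367 genes at 0.05. This scale understates changes of low genes. Reads were recovered from RPKM steps with GENCODE M21 exonic lengths. Within 0.02 reads, 78.2% to 83.9% of low values (under 200 reads) were whole per library, and 78.2% of genes were whole in all libraries. Voom on those genes was an alternative. The procedure was tested on simulated data.

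The members and all gene lists, including the cell type markers, were chosen with earlier results of these data known. All 33 members are described. Genes of the other pathway lists are named where they passed with a log2 difference of 1 or more in a comparison, or were among the 2 largest that passed. Values of some list members are not reported here. Promoters are from RefSeq on GRCm38.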

Additional observations from a re-analysis of the deposited data

How the results depend on the processing

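The number of calls depended on which genes and libraries entered the fit, and scaling changed mainly their split into higher and lower. Voom on recovered reads covered fewer genes. It called 5655 genes and 13 members for immature minus mature (8728 and 24 as reported), and 4847 genes and 14 members for immature minus double negative cells (7563 and 24). Limma on the same genes called 14 members for immature minus mature, 4787 genes and 16 members for mature minus double negative (7256 and 25), and 15 members for immature minus double negative cells. Fewer genes and members were tested in both. Leaving out 1 library at a time gave 6335 to 9810 genes and 19 to 26 members for immature minus mature, 4767 to 8982 genes (lowest without mature replicate 2) and 19 to 28 members for mature minus double negative, and 5060 to 8848 genes and 15 to 26 members (lowest without double negative replicate 1) for immature minus double negative cells. A group left with 1 library is assumed to vary like the others.

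Among members called in either fit, signs reversed only after quantile normalization. Of differences called in neither fit, 5 changed sign after median-ratio rescaling and 6 after quantile normalization, and some near 0 did so without 1 library. For immature minus mature cells the reversed values were -0.19 for Mvd, -0.47 for Fdps, -0.65 for Tm7sf2, -0.16 for Nsdhl, -0.19 for Dhcr7 and -0.64 for Acaca. For immature minus double negative cells they were -0.043 for Msmo1, -0.026 for Ebp, -0.042 for Insig2 and -0.45 for Acaca. The cause was not tested.

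The design text has the groups sorted from the same islets, and library titles share a tag within each replicate number. No label states that this tag marks 1 pool of islets. Replicate number also goes with the labelled sex, so pool and sex cannot be told apart, and the main fit leaves it out. The correlation of replicate deviations across genes was -0.009 for immature and mature, 0.14 for immature and double negative and -0.112 for mature and double negative libraries. With the replicate block, 8407, 6803 and 7073 genes and 24, 25 and 23 members passed in the 3 comparisons, and Dhcr7 lost its call for immature minus double negative cells (limma adjusted p = 0.0585). The low read totals of the immature libraries limit the precision of members near 1 RPKM and of some higher ones. Immature values of Mvk rest on 33 and 47 reads, and those of Mvd on about 26 and 37. The standard deviation of the difference between replicates was 0.393 for the immature group, against 0.132 (mature) and 0.222 (double negative). Because the fit shares 1 variance per gene among the groups, its standard errors and p-values may understate the spread of immature libraries. This was not tested.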
